A study of Homo sapiens with 12 samples.

Results

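Guide abundance was compared over all genes between HEK293 cells grown with actinonin and chloramphenicol together and cells grown with the ethanol solvent alone. No gene was left out, so the comparison covers 19112 of 19112 genes with 76441 guide RNAs, of which 19103 genes had 4. HEK293 is a human embryonic kidney line. Each cell carried a guide of the genome-wide Brunello knockout library, which disrupts a single gene, and the frequency of its guides after growth shows whether cells without that gene multiplied more or less than the rest. The compared groups were ACT CAP, with 15 µM actinonin and 5 µg/mL chloramphenicol, and EtOH, each with 3 replicates collected on day 15. Cells with 15 µM actinonin alone (ACT) or 5 µg/mL chloramphenicol alone (CAP), also 3 replicates each, served to place the combination beside each drug. All 12 samples came from a puromycin-selected and expanded pool of knockout cells that was then divided among the conditions. The medium held serum, high glucose, glutamine, non-essential amino acids, pyruvate and uridine. Guide frequencies hold no expression, so the line could not be checked against marker genes.

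Mitochondria have their own ribosomes, which make a small set of proteins of the respiratory chain. Chloramphenicol stops these ribosomes from joining amino acids, whereas actinonin inhibits enzymes that process the new chains and leads to faulty products in the inner membrane. Cells without respiration depend on glycolysis for ATP, and on signals such as AMPK and mTORC1 that fit growth to the energy at hand. Pyruvate and uridine in the medium let such cells grow.

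The authors deposited, for each gene and condition, a beta and a z score from a single fit over replicates and guides. Beta is the change in guide abundance that this fit assigns to a condition, where neither the starting point of the change nor the base of the log is stated, and z is beta divided by its standard error. A lower beta means that more of the guides were lost. The median beta over all genes was -0.157 in EtOH and -0.133 in ACT CAP, and the share of genes above 0 was 7.29% and 9.92%. The median error of a beta difference was 0.114. To test a gene, its beta difference was divided by the joined standard error of both conditions, set to a median of 0 over all genes and expressed in spreads of all genes. The result, here the Wald difference, was called where its 2-sided normal p was under 0.05 after Benjamini-Hochberg adjustment over all 19112 genes. With the median error a gene needed a beta difference of 0.338 to be called higher or -0.281 to be called lower. Values per replicate are not in the table, so each ± below is a standard error of the fit and no p is given for a single gene.

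ACT CAP differed from EtOH in 53 genes, 37 higher (0.194% of all genes) and 16 lower (0.0837%). The 37 higher genes all had an EtOH beta below the median of all genes and were less depleted with both drugs. In ACT CAP 20 of them lay above the median of all genes and 4 above 0, namely PCYT1A, INTS6, MAPK14 and HSPH1. Their beta differences ran from 0.255 to 0.918. Of the 16 lower genes 9 had an EtOH beta above the median of all genes, which was itself below 0 (-0.157 in EtOH and -0.133 in ACT CAP). In EtOH 8 had a beta above 0, and 7 of these were below 0 in ACT CAP. A beta below 0 was thus common to most genes, and PDHB, at -0.0728 in ACT CAP, still lay above the median. The other 8 were already below 0 in EtOH and lost more guides, though MAP4K2 (-0.0558) was above the EtOH median. Differences of the lower genes ran from -0.154 to -0.893. Closest to the threshold, SULT1A4 (Wald difference 3.83) was called and ATP6V1C1 (3.77) was not, and on the lower side MAP4K2 (-3.82) was called and RAB7A (-3.78) was not.

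**Figure D1:**
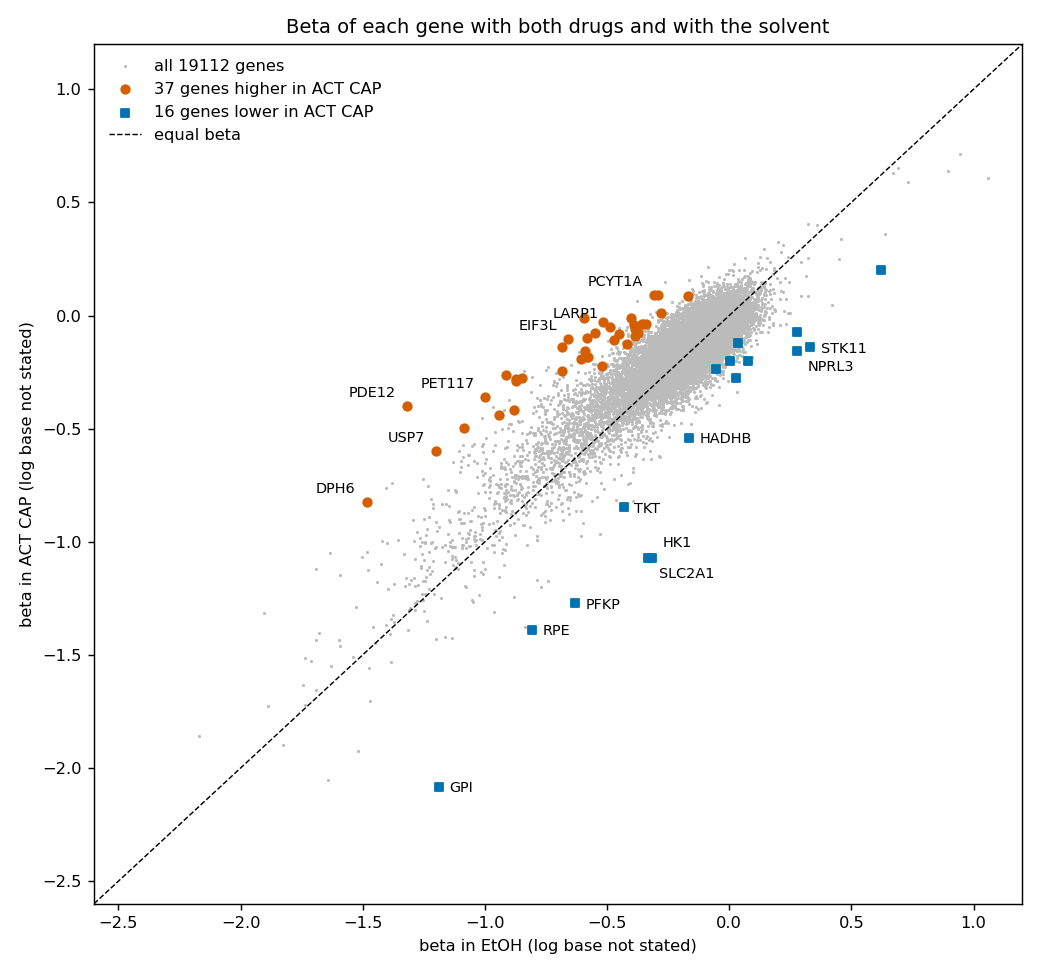
Beta in ACT CAP (vertical axis) against beta in EtOH (horizontal axis) for 19112 genes, with the 37 genes called higher as orange circles and the 16 called lower as blue squares. Genes above the dashed line of equal beta lost fewer guides with both drugs. Every orange point lies left of 0, while the blue points lie on both sides of 0, from GPI at an EtOH beta of -1.19 to STK11 and others above 0.

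The differences followed the depletion of a gene in EtOH. In the 222 genes with an EtOH beta of -1 or less the median beta difference was 0.144, in the 833 genes between -0.75 and -0.5 it was 0.115, and in the 12742 genes between -0.25 and 0 it was 0.0207. Above 0 it changed sign, to -0.0427 in 1372 genes up to 0.25 and -0.210 in the 21 genes beyond. These groups were formed on the EtOH beta, which is also part of the difference, so errors of that beta alone give a trend of this direction. The study chose drug doses that inhibited growth, so ACT CAP and EtOH also differed in growth. The part of these errors or of growth in the trend was not tested. With the trend over the EtOH beta removed by a running median, 28 of the 37 higher genes and 11 of the 16 lower genes were still called, and 8 other genes were called lower. Among the calls lost were those of PDHB, SOWAHA, FAM210B and MAP4K2 on the lower side, and of ATP6AP2, PAICS, VHL, MAPT, DRG2, PINX1, KRT31, WDR81 and SULT1A4 on the higher side. The raw differences spread over only 0.713 of what the standard errors of the fit give. With these errors taken as they stand 1 gene was higher, PDE12, and 0 were lower (at an unadjusted p under 0.05, 197 and 114).

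Guides against SLC2A1 and HK1, which bring glucose into the cell and into glycolysis, were lost to a similar degree. HK1, a hexokinase, had a beta of -0.318 ± 0.127 in EtOH and -1.07 ± 0.129 in ACT CAP, with -0.550 under ACT and -1.15 under CAP. SLC2A1, which carries glucose across the plasma membrane, stood at -0.331 ± 0.126 in EtOH and -1.07 ± 0.127 in ACT CAP, with -0.600 under ACT and -1.02 under CAP. Their Wald differences from EtOH, -6.21 and -6.17, were the lowest of all genes. For both, the ACT CAP value was also lower than that of ACT (Wald difference -3.90 and -3.58), whereas against CAP neither passed (0.598 and -0.599). Of this list of 7 genes these 2 were called lower (0.0837% of all genes were). The other 5 members were not called, and HK2 was the lowest of them at -1.46. HK2, another hexokinase, had a beta of -0.356 in EtOH and -0.499 in ACT CAP, with lower values under ACT (-0.877) and CAP (-0.859).

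Of 16 glycolytic enzymes 2 were lower (0.0837% of all genes were) and none was higher (0.194%). PFKP, a phosphofructokinase, went from -0.632 ± 0.136 to -1.27 ± 0.138, and GPI, which makes fructose 6-phosphate, from -1.19 ± 0.220 to -2.08 ± 0.222 (Wald difference -4.98 and -4.35). GPI guides were the most depleted among the 53 called genes in ACT CAP. The median Wald difference of the 16 was -0.870 (-1.14 with the trend over the EtOH beta removed), against 0 over all genes by construction, with 11 below 0. Isoenzymes of a step differed in level. ENO1 had a beta of -0.838 in EtOH and -1.38 in ACT CAP (Wald difference -3.57, not called), while ENO3 and ENO2, the muscle and neuronal enolases, stood at -0.221 and -0.171 in EtOH with Wald differences of -0.582 and 1.16. The highest member was ALDOC, a brain aldolase, at 1.80. PGK1, phosphoglycerate kinase, was strongly depleted in both conditions, with betas of -1.24 and -1.16 (Wald difference 0.155).

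The pentose phosphate pathway branches from glycolysis and yields NADPH and ribose 5-phosphate. Of its 11 genes 10 had a Wald difference below 0, and the median was -1.84, the lowest of 59 lists. With the trend over the EtOH beta removed it was -1.45, close to the -1.34 of the list of SLC2A1 and HK1 (-1.10 before removal). TKT and RPE, both in the non-oxidative branch that returns sugar phosphates to glycolysis, were called lower (0.0837% of all genes were). TKT moved from -0.433 ± 0.115 to -0.849 ± 0.116, and RPE from -0.809 ± 0.162 to -1.39 ± 0.164 (Wald difference -3.93 and -3.88). PGD, which makes NADPH, gave -2.86 and was not called. H6PD, an enzyme of the endoplasmic reticulum, was highest at 0.483.

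Pyruvate dehydrogenase joins glycolysis to the tricarboxylic acid cycle, and guides against its E1 and E2 enzymes were above 0 in EtOH. PDHB, the beta subunit of E1, had a beta of 0.279 ± 0.0820 in EtOH and -0.0728 ± 0.0823 in ACT CAP, with 0.270 under ACT and -0.000841 under CAP (Wald difference -4.60). ACT CAP was lower than ACT here (-3.99) but not called against CAP (-1.08). PDHA1, the partner subunit of E1, from 0.0641 to -0.185, and DLAT, the E2 enzyme, from 0.146 to 0.00372, were not called (-3.55 and -3.44). The other 12 genes of the list, among them the pyruvate carrier and the kinases and phosphatases of the complex, lay between -1.67 for MPC1 of the carrier and 2.71 for PDPR, a regulator of the phosphatase. The median of all 15 was -0.170.

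Of 15 genes of the cycle itself 1 was called, and it was higher (0.194% of all genes were). IDH3B, a subunit of the NAD-dependent isocitrate dehydrogenase, rose from -0.390 ± 0.0663 in EtOH to -0.0403 ± 0.0663 in ACT CAP, with -0.189 under ACT and 0.0131 under CAP (Wald difference 4.87). IDH3A, the catalytic subunit of this enzyme, had 2.98, and IDH3G 0.231. The other 12 of 15 genes ranged from -2.27 for MDH2 to 1.22 for IDH2. MDH2, the mitochondrial malate dehydrogenase, had a beta of -0.980 under ACT alone, against 0.100 in EtOH, -0.0424 under CAP and -0.0592 in ACT CAP. The Wald difference of ACT CAP over ACT was 10.5.

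**Figure D2:**
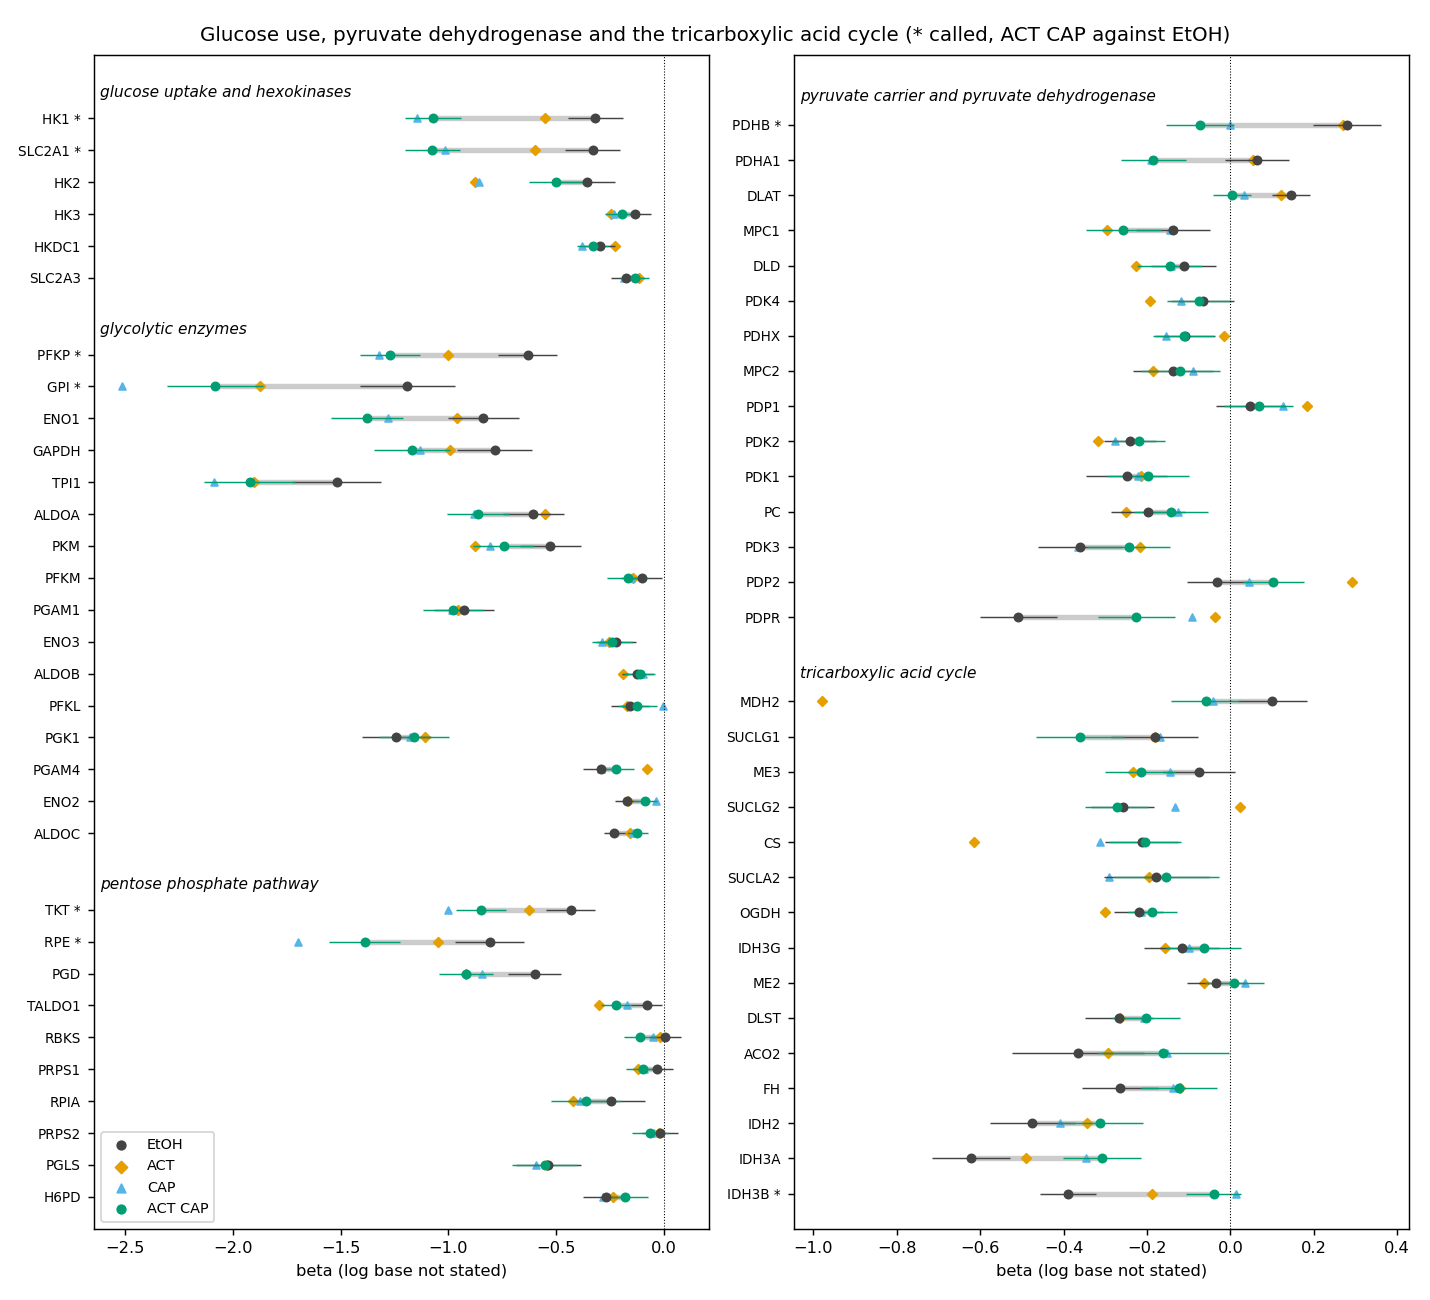
Beta in EtOH (grey circles), ACT (orange diamonds), CAP (blue triangles) and ACT CAP (green circles) for genes of 5 lists, with bars of 1 standard error on EtOH and ACT CAP. Asterisks mark called genes. HK1, SLC2A1, PFKP, GPI, TKT and RPE move left with both drugs, PDHB crosses 0, and IDH3B moves right.

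Several genes whose guides had a beta above 0 in EtOH were lower with both drugs. Beside them, the median of all genes was -0.157 in EtOH and -0.133 in ACT CAP. STK11 (LKB1), the kinase that activates AMPK, went from 0.332 ± 0.0857 in EtOH to -0.140 ± 0.0872 in ACT CAP, with -0.204 under ACT and 0.0894 under CAP (Wald difference -5.77). None of the other 18 genes of the LKB1 and AMPK list was called (0.0837% of all genes were called lower), the highest being CRTC3 at 1.51. The median of the list was -0.549 (-0.239 with the trend over the EtOH beta removed). CAB39, a scaffold of the LKB1 complex, stayed far above 0, at 0.946 in EtOH and 0.714 in ACT CAP (-1.20). PRKAA1, the catalytic subunit alpha 1 of AMPK, had 0.147 and 0.118 (-0.549).

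NPRL3 is a subunit of GATOR1, which holds back mTORC1 when amino acids are short. It moved from 0.277 ± 0.0876 in EtOH to -0.156 ± 0.0885 in ACT CAP, with 0.173 under ACT and -0.0165 under CAP (Wald difference -5.23). Its partners were not called, NPRL2 with betas of 0.232 and -0.0376 (-3.47) and DEPDC5 with 0.218 and 0.102 (-1.82). TSC1 and TSC2, which form the complex that switches off the activator of mTORC1, were at 0.692 and 0.896 in EtOH and still at 0.654 and 0.639 in ACT CAP (-0.519 and -1.05). Of the 21 brakes on mTORC1 and PI3K 15 had a Wald difference below 0, with a median of -0.999. The median beta of these 21 in EtOH was -0.0199, and with the trend over the EtOH beta removed their median Wald difference was -0.514. The highest was GATSL3 (CASTOR1), an arginine sensor, at 1.21. In a list of 27 genes of mTORC1, its lysosomal anchor and factors that act with them, 1 was called, and it was higher (0.194% of all genes were). The median Wald difference of these 27 was -0.150, and the called gene is not a part of mTORC1 or of the anchor. LARP1, an RNA-binding protein that acts below mTORC1 on mRNAs for the translation machinery, rose from -0.489 ± 0.0722 to -0.0501 ± 0.0721 (Wald difference 5.68), and the lowest of these 27 was LAMTOR4 at -1.51.

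Of the remaining lower genes HADHB, the thiolase subunit of the mitochondrial trifunctional protein of fatty acid oxidation, went from -0.164 to -0.540 (Wald difference -4.21). SMARCD1, a subunit of the SWI/SNF chromatin remodeller, went from 0.0257 to -0.276 (-5.35). Of 38 chromatin genes it was the only one called (0.0837% of all genes were called lower), and the highest was KDM1A at 2.54. NLN is a peptidase found in mitochondria and cytosol. Its beta was 0.0758 ± 0.0509 in EtOH and -0.201 ± 0.0510 in ACT CAP (-5.74), with -0.0321 under ACT and -0.0272 under CAP. FAM210B, a mitochondrial membrane protein, lay between 0.0333 and 0.0376 in EtOH and under each drug but at -0.120 in ACT CAP (-3.85). The kinase MAP4K2 went from -0.0558 in EtOH to -0.235 in ACT CAP (-3.82), with -0.0538 under ACT and -0.0995 under CAP. SOWAHA went from 0.00151 to -0.202 (-3.88). In 10 of the 16 lower genes ACT CAP had the lowest beta of the 4 conditions. The choice of these genes by a low ACT CAP beta against EtOH favours such a count, and none of the 16 passed the test of ACT CAP against CAP. FAM210B (-4.20) and NLN (-3.97) came nearest in that test.

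**Figure D3:**
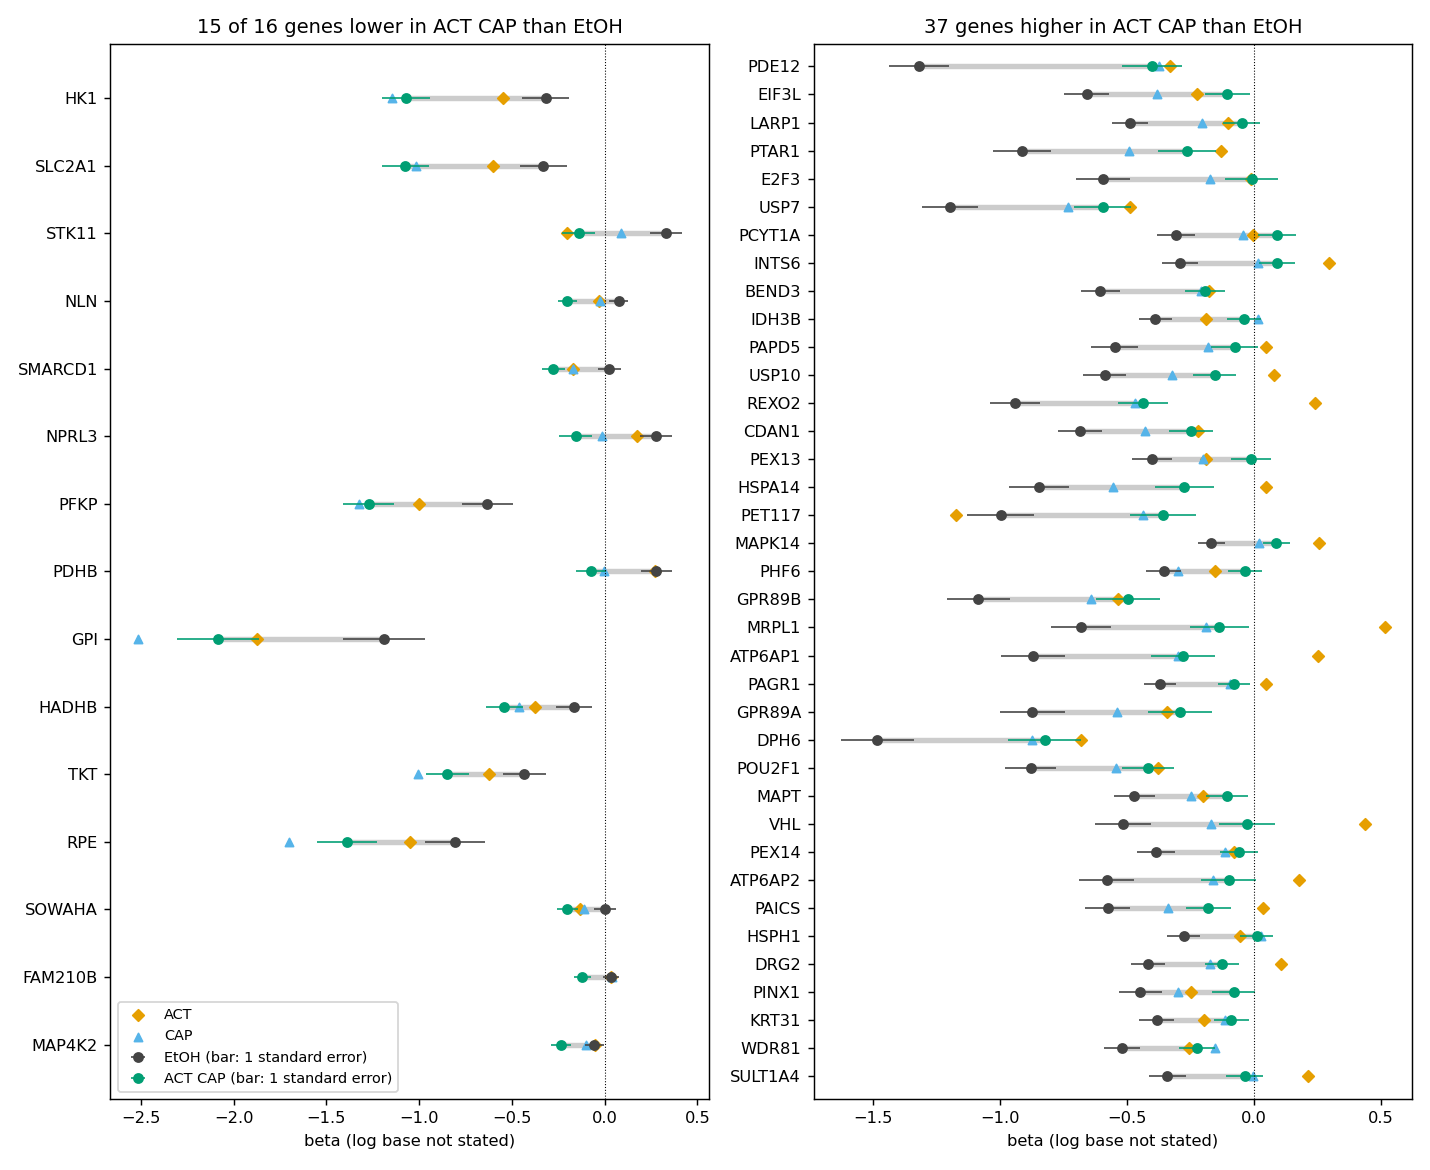
Beta in the 4 conditions for 15 of the 16 genes lower and the 37 genes higher in ACT CAP than EtOH, ordered by Wald difference, with bars of 1 standard error on EtOH and ACT CAP. For the higher genes ACT (orange diamonds) ranges from -1.17 in PET117 to 0.516 in MRPL1, and for the lower genes the lowest point is GPI under CAP at -2.52.

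The highest Wald difference belonged to an enzyme of mitochondrial RNA. PDE12, which trims poly(A) tails from mitochondrial transcripts and tRNAs, had a beta of -1.32 ± 0.118 in EtOH and -0.402 ± 0.117 in ACT CAP (Wald difference 7.39). The single drugs gave -0.332 (ACT) and -0.377 (CAP), and ACT CAP was not called against either (-0.587 and -0.321). REXO2, an oligonucleotidase that clears short RNA fragments in mitochondria, rose from -0.942 ± 0.0989 to -0.439 ± 0.0988 (4.70), with -0.468 under CAP. Under ACT it was at 0.240, and ACT CAP was far lower than that (-6.57). Of 21 genes of mitochondrial RNA processing and decay these 2 were called higher (0.194% of all genes were). The other 19 were not called, down to PTCD2 at -1.42. PTCD2 and FASTKD1, which act on mitochondrial transcripts, were strongly depleted under ACT alone (-1.04 and -1.14) but not in ACT CAP (-0.175 and -0.181) or EtOH (-0.0897 and -0.163).

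The mitochondrial ribosome is the target of chloramphenicol. Over all genes 0.194% were called higher than EtOH and 0.0837% lower. Among the 833 genes with an EtOH beta between -0.75 and -0.5, 11 were called higher and 1 lower. Of 52 large subunit genes 1 was called, MRPL1, from -0.683 ± 0.117 to -0.138 ± 0.117 (Wald difference 4.27), and the lowest was MRPL50 at -1.91. Of 30 small subunit genes none was called (medians of large and small 0.457 and 0.254, or -0.0790 and -0.248 with the trend over the EtOH beta removed), from MRPS7 at -2.05 to MRPS28 at 3.11. The median beta of the large subunit genes was -0.712 in EtOH and -0.627 in ACT CAP, with -0.378 under ACT and -0.604 under CAP. Against ACT, ACT CAP was lower in 10 of the 52 and 3 of the 30, and higher in none (over all genes 0.534% were lower and 0.288% higher than ACT).

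Respiratory chain genes had median Wald differences above 0 in complexes I and IV, with 1 single call (0.194% of all genes were called higher). Of the 37 subunits of complex I, the NADH dehydrogenase, 32 had a Wald difference above 0, with a median of 1.07 that came to 0.628 with the trend over the EtOH beta removed, and none was called. The highest was NDUFA9 at 3.73 and the lowest NDUFS6 at -0.648. The study names a z difference of 3 for ACT against ACT CAP. Applied here to the deposited z of ACT CAP minus EtOH, a difference of 3 or more was met by 1.27% of all genes, and 7 of the 37 passed, and none was at -3 or less (0.188% of all genes). The median beta of the 37 was -0.542 in EtOH and -0.590 under ACT, but -0.324 under CAP and -0.322 in ACT CAP. Of these 37, 11 were higher in ACT CAP than in ACT (0.288% of all genes were) and none was lower (0.534%). Of 39 genes of complex IV, cytochrome c oxidase, 30 lay above 0 with a median of 0.845 (0.483 without the trend), and the lowest was TMEM177 at -1.88. Its 1 called gene was PET117, an assembly factor, at -0.998 ± 0.132 in EtOH and -0.360 ± 0.131 in ACT CAP (4.46). PET117 had -0.437 under CAP and -1.17 under ACT, and ACT CAP was also higher than ACT (5.87). Complex III (15 genes, median -0.0142) and ATP synthase (22 genes, median 0.0910) had no call, and without the trend their medians were -0.245 and -0.324.

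Guides against the cytosolic ribosome, the proteasome and the spliceosome were depleted in EtOH, and none of their genes was called. Over all genes 0.194% were called higher and 0.0837% lower, so an absence of calls in lists of this size is near that share. The median beta in EtOH was -0.427 for 79 cytosolic ribosome genes, -0.334 for 33 proteasome genes and -0.435 for 44 spliceosome genes. Their median Wald differences were 0.0996, 0.0749 and 0.0364, against 0.445 in the 3592 genes with an EtOH beta between -0.5 and -0.25, and turned to -0.349, -0.269 and -0.347 with the trend over the EtOH beta removed. In translation initiation (32 genes, median 0.406 and -0.0185 without the trend, lowest EIF1AX at -1.29) the only call was EIF3L, a peripheral subunit of the initiation factor eIF3, from -0.660 ± 0.0893 to -0.106 ± 0.0889 (5.81). EIF3D of the same complex had 2.84 and EIF3K, the partner of EIF3L, 1.46.

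**Figure D4:**
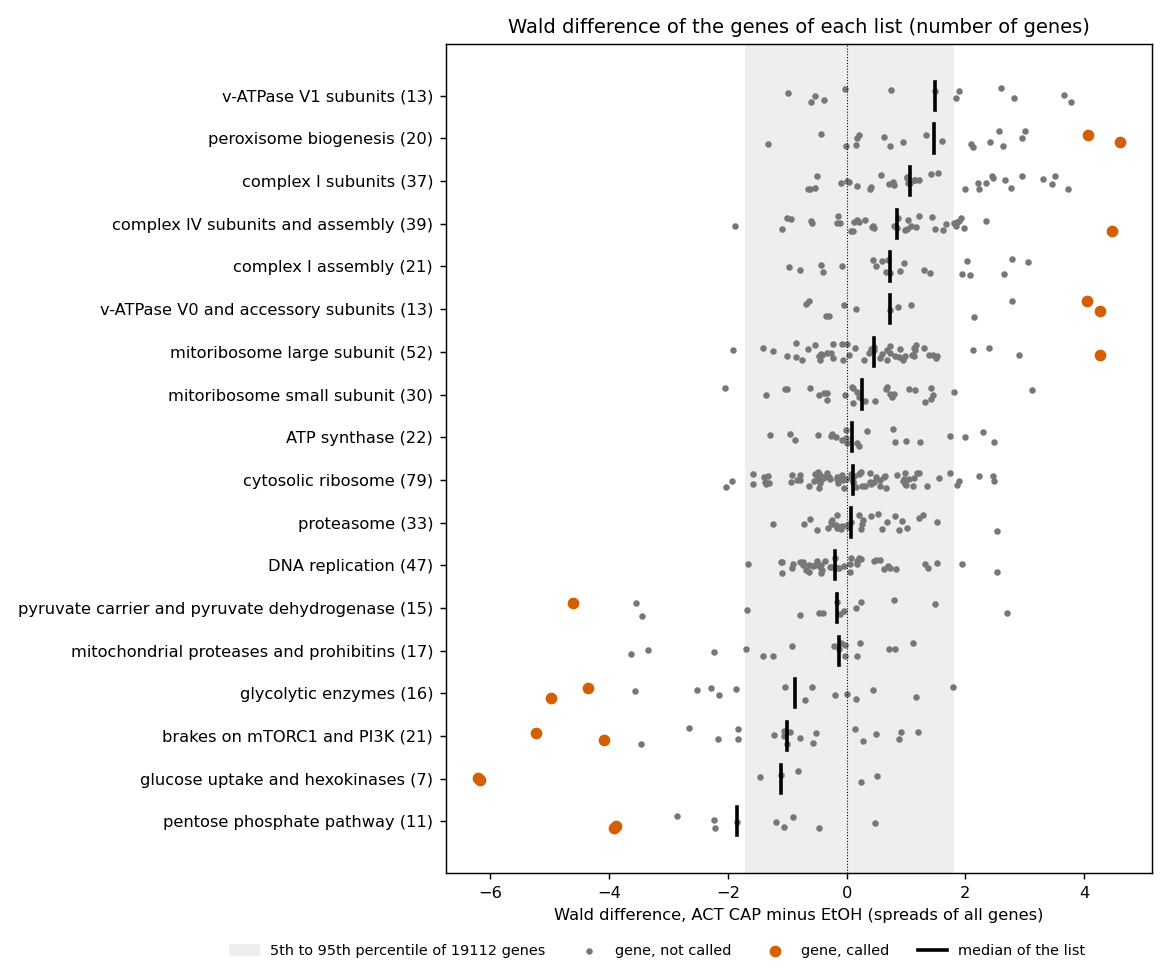
Wald difference of ACT CAP minus EtOH for each gene of 18 lists, with called genes in orange, the median of each list as a black bar and the 5th to 95th percentile of all genes (-1.70 to 1.79) shaded. The pentose phosphate pathway has the lowest median and v-ATPase V1 (1.484) and peroxisome biogenesis (1.47) the highest, an order of these 2 that turns with the trend over the EtOH beta removed (1.05 and 1.19). Ribosome and proteasome genes sit around 0 here, at medians of 0.0996 and 0.0749 (-0.349 and -0.269 without the trend).

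The v-ATPase pumps protons into lysosomes, with a V1 sector that splits ATP and a V0 sector in the membrane. Its accessory subunits ATP6AP1 and ATP6AP2 were higher in ACT CAP. ATP6AP1 went from -0.871 ± 0.127 in EtOH to -0.282 ± 0.126 in ACT CAP (Wald difference 4.26), with -0.302 under CAP. Under ACT it was at 0.253, above ACT CAP (-4.09). ATP6AP2 went from -0.580 ± 0.108 to -0.100 ± 0.108 (4.05), with 0.175 under ACT and -0.161 under CAP. The other 11 genes of the V0 list (median 0.731, and 0.459 with the trend over the EtOH beta removed) were not called, down to ATP6AP1L at -0.687. None of the 13 V1 subunits was called, which in a list of this size is near the share of all genes called higher (0.194%). Their median was 1.484, from ATP6V1G2 at -0.990 to ATP6V1C1 at 3.77. The 5 with a negative value were ATP6V1G2, ATP6V1E2, ATP6V1B1, ATP6V1G3 and ATP6V1C2, which encode tissue-restricted isoforms. Of the 13 genes of the V0 list 8 were above 0 and 5 below, the latter including ATP6V0A1 (-0.0483) and ATP6V0A2 (-0.634). Median betas of V1 were -0.624 in EtOH and -0.280 in ACT CAP, with -0.137 under ACT and -0.307 under CAP. ATP6V1A and ATP6V1C1 were lower in ACT CAP than in ACT (-5.92 and -3.93), as were 0.534% of all genes. Among 10 assembly factors WDR7 came nearest, at 3.74, and DMXL2 was lowest at -0.838. GPR89A and GPR89B, near-identical genes for a Golgi pH regulator, were both called (4.20 and 4.32). A guide may match both copies, so these calls may not be separate.

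Peroxisomes import their enzymes through a docking complex on their membrane, and both called genes of the peroxisome list encode parts of it. PEX13 rose from -0.402 ± 0.0779 to -0.0126 ± 0.0779 and PEX14 from -0.387 ± 0.0736 to -0.0596 ± 0.0734 (Wald difference 4.61 and 4.06). Of 20 peroxisome genes these 2 were called higher (0.194% of all genes were), and 17 lay above 0. The median was 1.47, and 5 had a z difference of 3 or more (1.27% of all genes). PEX6 and PEX10, which recycle and modify the import receptor, had 3.001 and 2.96 and were not called, and PEX19 was lowest at -1.33. The median beta of the list was -0.303 in EtOH, and it was close in all drug conditions, with -0.145 under ACT, -0.147 under CAP and -0.136 in ACT CAP.

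**Figure D5:**
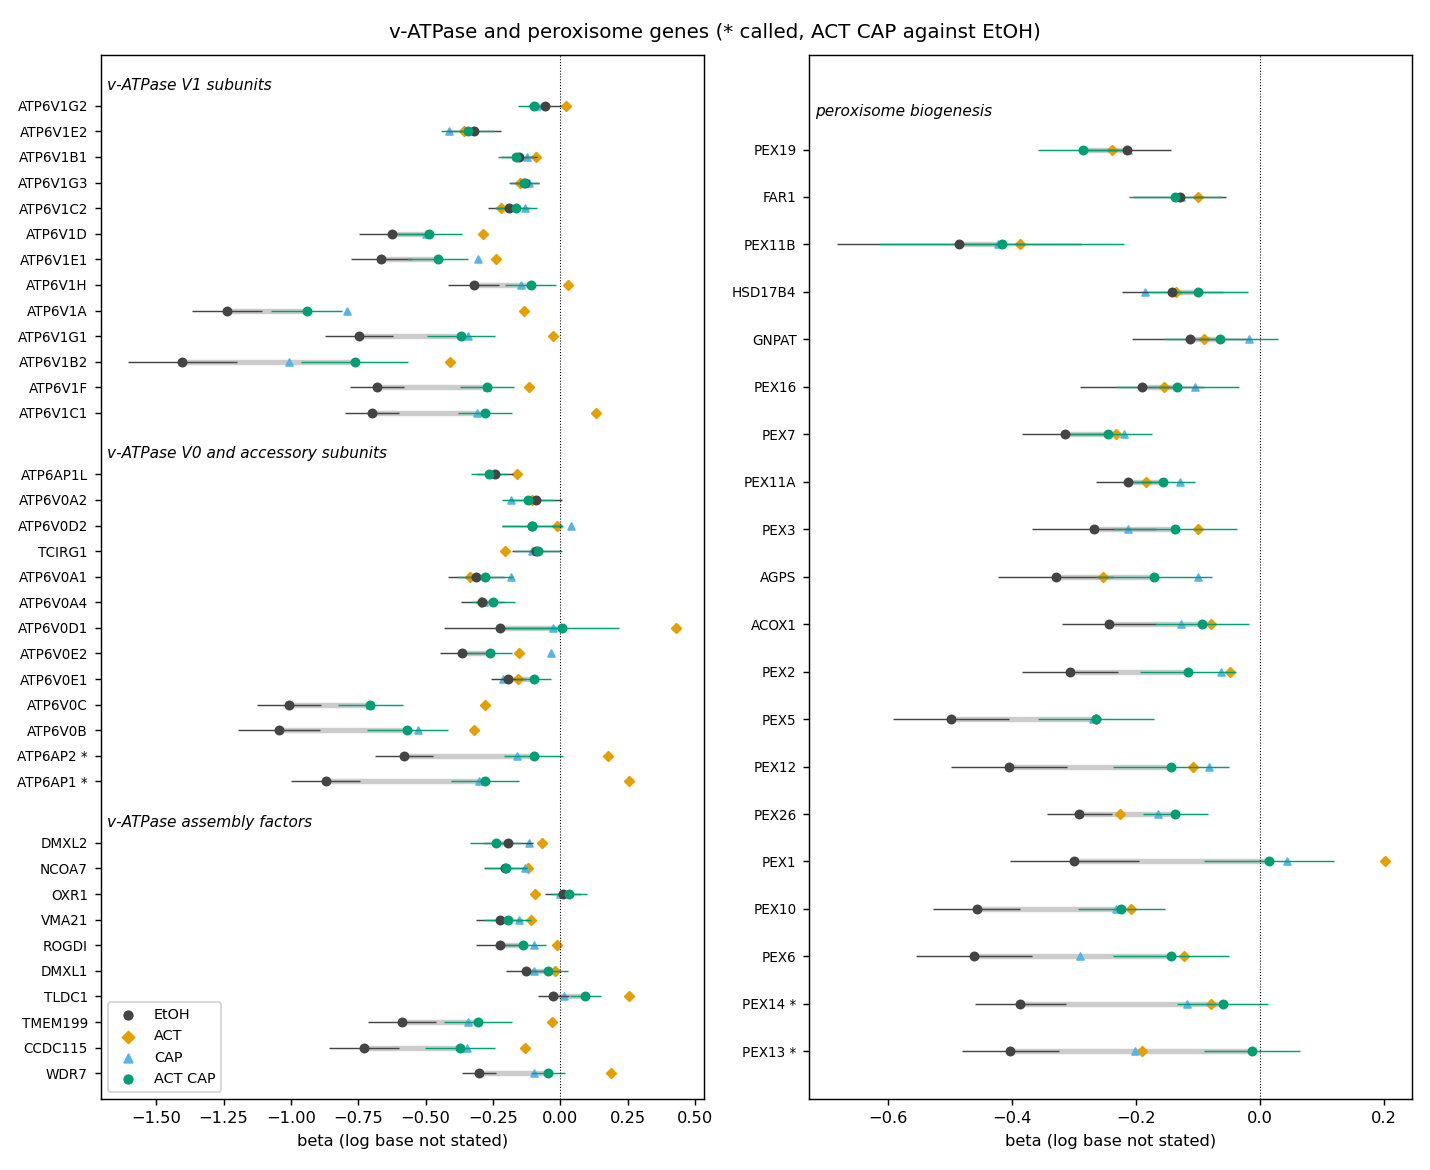
Beta in EtOH (grey circles), ACT (orange diamonds), CAP (blue triangles) and ACT CAP (green circles) for 36 v-ATPase genes and 20 peroxisome genes, with bars of 1 standard error on EtOH and ACT CAP and asterisks on called genes. In ATP6AP1, ATP6AP2 and ATP6V1A the ACT point lies furthest right, and in PEX13 and PEX14 the single drug points lie together.

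Of the 37 higher genes 15 belonged to a list and 22 to none. Cell cycle and growth control was represented by E2F3, a transcription factor of S phase entry, from -0.595 ± 0.106 to -0.0106 ± 0.105 (Wald difference 5.13), and by USP7, a deubiquitinase that stabilises MDM2, from -1.20 ± 0.111 to -0.598 ± 0.111 (5.03). MAPK14, the stress kinase p38 alpha, went from -0.169 to 0.0869 (4.41). MDM2 itself had 0.929, and in the lists of USP7 and E2F3 the lowest were CDKN1A at -1.32 and FBXW7 at -3.28. Genes of chromatin and transcription were BEND3, a repressor found at heterochromatin (4.90), INTS6 of the Integrator complex (4.91), PHF6 (4.36), PAGR1, which binds histone methyltransferase complexes (4.22), and POU2F1, the factor OCT1 (4.14). CDAN1, codanin-1, which binds a histone chaperone, had 4.64, and its partner C15orf41 (CDIN1) lay just outside the threshold at 3.73.

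PCYT1A, which controls the synthesis of phosphatidylcholine, went from -0.308 ± 0.0743 to 0.0906 ± 0.0740 (Wald difference 4.98). PTAR1, a prenyltransferase subunit, had 5.27 and WDR81 of the endosome 3.84. The phosphoinositide regulators FIG4 and VAC14, which work together on late endosomes, had 3.76 and 3.61 and were not called. RAB7A, the small GTPase of late endosomes, had -3.78. RNA and translation genes outside the lists were PAPD5 (TENT4B), a non-canonical poly(A) polymerase (4.71), USP10, a deubiquitinase (4.70), DPH6, which completes diphthamide on elongation factor eEF2 (4.18), DRG2, a GTPase (3.98), and HSPA14 of the ribosome-associated chaperone pair (4.51). DPH6 was the most depleted of the 37 in EtOH, at -1.484, and stayed at -0.826 in ACT CAP.

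VHL, the ubiquitin ligase subunit that removes HIF, went from -0.518 ± 0.110 in EtOH to -0.0295 ± 0.109 in ACT CAP (Wald difference 4.07), with -0.169 under CAP. Under ACT it was at 0.436, above ACT CAP (-4.09). ARNT, the partner of HIF, had 3.04, HIF1A -0.545 and EGLN2, a HIF hydroxylase and the lowest of 14 hypoxia genes, -1.77. PAICS, of purine synthesis, went from -0.577 to -0.181 (4.05). The other 10 purine genes were not called (0.194% of all genes were called higher), the lowest being PFAS at -0.860. The remaining higher genes were the chaperone HSPH1 (4.04), tau (MAPT, 4.08), the telomerase inhibitor PINX1 (3.92), the hair keratin KRT31 (3.85) and the sulfotransferase SULT1A4 (3.83), which has a near-identical copy.

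Set directly against CAP alone, the combination differed in few genes. ACT CAP was higher than CAP in 4 genes (0.0209%) and lower in 5 (0.0262%). The higher ones were ATP2C1, a calcium pump of the Golgi (Wald difference 4.42), MIEF1, a receptor of mitochondrial fission (4.42), PHF6 (4.37) and FCHSD1 (4.31). The lower ones were LAP3, a leucine aminopeptidase (-5.43), USP51 (-4.63), GTPBP6, a recycling factor of the mitochondrial ribosome (-4.55), RBM15 (-4.55) and NME6, a nucleoside diphosphate kinase (-4.26). Of the 53 genes that differed from EtOH only PHF6 was among these 9. It was at -0.357 ± 0.0677 in EtOH and -0.0360 ± 0.0676 in ACT CAP, with -0.156 under ACT and -0.299 under CAP. LAP3 was at -0.377 in ACT CAP, after -0.169 in EtOH, -0.0237 under ACT and -0.0836 under CAP. It was also lower than ACT (-5.38) but not called against EtOH (-3.64).

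Against ACT alone 55 genes were higher (0.288%) and 102 lower (0.534%). Of the 53 genes that differed from EtOH, 9 were called in this test. PET117 was higher in ACT CAP than in ACT, and REXO2, MRPL1, VHL, ATP6AP1, PDHB, HK1, SLC2A1 and NPRL3 were lower. For REXO2, MRPL1, VHL and ATP6AP1 the ACT value was far above EtOH and the ACT CAP value lay between, whereas for HK1, SLC2A1, PDHB and NPRL3 the ACT beta was nearer to EtOH than to ACT CAP. Over all 37 higher genes the ACT CAP beta lay between those of ACT and CAP in 22, and it was the highest of the 4 conditions in 13. These tests and counts share the ACT CAP values with the comparison to EtOH by which the genes were chosen.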

How the data were processed

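Genomic DNA of pooled knockout cells was amplified and sequenced for guide abundance in 12 samples, 3 per condition. The authors analysed the guides with MAGeCK, whose version is not given in the sources used here, and deposited a single gene table of 19112 genes. The authors made its beta score and z score per gene and condition with the maximum likelihood fit of that tool over guides and replicates, so the depth of each sample is unknown here and precision is that of the fit. The authors also deposited a Wald p-value, a permutation p and an FDR for each beta. The Wald p-value served only to recompute z cells that a spreadsheet had turned into dates, namely 149 for EtOH, 218 for ACT CAP, 573 for ACT and 206 for CAP, a step that on intact cells differed from the deposited z by at most 0.00102. The other columns were not used. TSC2 has no readable ACT beta and was left out of tests with ACT.

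Samples were grouped by their treatment labels. Standard errors were beta divided by z. The difference of 2 betas was divided by the root of their summed squared errors, shifted to a median of 0 and divided by the normal-consistent median absolute deviation over all genes, with Benjamini-Hochberg adjustment at 0.05, in Python 3.11.15, numpy 2.4.6, pandas 2.3.3 and scipy 1.17.1. The code was tested on simulated data. Alternatives were a z difference of 3, which the study names for ACT against ACT CAP, errors taken unscaled (a standard normal null), a stricter adjusted p of 0.01, removal of a running median over beta, genes with 4 guides, genes without recomputed z and the beta difference alone. Named genes were the 20 per direction with the largest Wald difference among called genes, every called gene of 59 hand-written lists (1390 genes, 6 entries without a match), and the highest and lowest member of each list described. Others were chosen after their values were seen. The members and lists were chosen with earlier results of these data known. Symbols matched RefSeq (GRCh38.p14) for 19030 genes. Guide sequences were not used here. Some genes that the rule names are not reported here.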

Additional observations from a re-analysis of the deposited data

How the results depend on the processing

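No paired analysis was possible because the table holds 1 value per condition, and for the same reason no replicate could be left out. Against 37 genes higher and 16 lower in ACT CAP than EtOH, the z difference of 3 gave 243 and 36, a standard normal null 1 and 0, an adjusted p of 0.01 19 and 9, and the beta difference alone 178 and 60, of which 30 and 13 were among the 37 and 16. With the trend over the EtOH beta removed there were 28 and 19, over the mean beta of both conditions 33 and 14, and over the mean beta of ACT and CAP, chosen after seeing the data, 36 and 17. Genes with 4 guides gave 37 and 16 and genes without recomputed z 35 and 12. Of the 42 genes named by the rule as called, only 36 were among the genes without recomputed z. All 42 kept their direction under each alternative that held them. In these 33 also kept their call, leaving aside the standard normal null, under which only PDE12 kept it, and the adjusted p of 0.01. Against CAP the 9 calls became 47 by the z difference, 0 with the standard normal null, 1 at 0.01 and 12 with the trend over the mean beta removed. Against ACT the 157 calls became 366, 16, 73 and 132. These alternatives against CAP and ACT were also chosen after seeing the data. The cause of these differences was not tested. Errors are those of the fit, and the reads per sample were not used here.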

Other observations

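Most olfactory receptors are not expressed outside the nose. Of 374 such genes none was called against EtOH, where 0.194% of all genes were called higher and 0.0837% lower. Their median Wald difference was -0.150 (0.0680 with the trend over the EtOH beta removed), and their values ran from -2.76 for OR52W1 to 3.57 for OR11H2. By the z difference 3 of them were at 3 or more (1.27% of all genes) and none at -3 or less (0.188% of all genes).

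Proteases of mitochondria included low values that were not called. YME1L1, a protease of the inner membrane, had a beta of -0.394 in EtOH and -0.821 in ACT CAP (Wald difference -3.63), with -1.35 under ACT and -0.434 under CAP, and ACT CAP was higher than ACT (3.84). PITRM1, which degrades presequences, had -0.405 in EtOH and -0.740 in ACT CAP (-3.34), with -0.693 under ACT and -0.393 under CAP. The 17 genes of the list of proteases and prohibitins had a median of -0.134 (-0.606 with the trend over the EtOH beta removed), and the highest was IMMP2L at 1.11.

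Of the 7 genes of complex II, SDHC, a membrane anchor of succinate dehydrogenase, was lowest, with a beta of -0.0704 in EtOH and -0.353 in ACT CAP (Wald difference -3.37), and SDHD, the other anchor, was highest at 1.34. Neither was called, and the difference between them was not tested.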
